A study of Mus musculus with 9 samples.

Results

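The mitochondrial ribosomal protein genes were described across naïve and activated B cells. They were chosen by their symbols, as every gene whose symbol is Mrpl or Mrps followed by a number and at most 1 further letter. The rule found 78 genes of the 17596 in the table, and it used no measured value. RNA was sequenced from primary splenic B cells in 9 libraries. The control mice, Mb1Cre, express the Cre recombinase from the B cell gene Mb1, so that recombination takes place in the B lineage. The Mct1f/fMb1Cre mice carry the same Cre and a floxed segment of Mct1, which encodes a monocarboxylate transporter and is listed under its gene symbol Slc16a1. Naïve cells (day 0) gave 2 libraries of each genotype, and cells cultured for 3 days with LPS (10 µg/ml) and IL-4 (50 ng/ml), which drive class switching in vitro, gave 2 Mb1Cre and 3 Mct1f/fMb1Cre libraries. All mice carried Cre, and the labels state neither the age nor the sex of the mice, nor whether libraries of 1 group came from different mice, so the p-values measure the spread between these libraries.

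Mitochondria make the few proteins encoded by their own genome on a ribosome that is separate from that of the cytosol. Its RNA comes from mitochondrial DNA, whereas all its proteins are encoded in the nucleus, made in the cytosol and imported. Some of these proteins descend from bacterial ribosomal proteins and others are found only in mitochondria. The products are membrane subunits of the respiratory chain and of the ATP synthase. B cells that leave the resting state grow, divide and enlarge their mitochondrial mass. Of the 78 genes, 51 encode proteins of the large subunit and 26 of the small subunit. Mrps30 and Mrps18a, despite their names, were counted in the large subunit, where their proteins sit in structures. The remaining gene, Mrps36, encodes KGD4, a part of the 2-oxoglutarate dehydrogenase complex, and keeps a ribosomal name.

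Most members, though not all, rose with activation, and the promoters of 5 of them are shown. Mrps15 and Mrps27 had the largest rises, Mrpl45 had the largest rise in the large subunit of Mb1Cre cells, Mrps6 had the largest difference between the genotypes on day 3, and Mrpl24 was the gene that fell. Each sequence is the 250 bases before the transcription start in RefSeq on GRCm38.p6, all on the plus strand: chr4:126046678-126046927 for Mrps15, chr13:99344536-99344785 for Mrps27, chr11:97315466-97315715 for Mrpl45, chr16:92058086-92058335 for Mrps6 and chr3:87919294-87919543 for Mrpl24. Capitals mark matches, on either strand, to the letters that NRF1 (GCGCNTGCG), the ETS family with GABP (CCGGAAG), YY1 (AANATGGCG), the E-box factors (CACGTG) and the SP family (GGGCGG) are known to recognise.
Mrps15: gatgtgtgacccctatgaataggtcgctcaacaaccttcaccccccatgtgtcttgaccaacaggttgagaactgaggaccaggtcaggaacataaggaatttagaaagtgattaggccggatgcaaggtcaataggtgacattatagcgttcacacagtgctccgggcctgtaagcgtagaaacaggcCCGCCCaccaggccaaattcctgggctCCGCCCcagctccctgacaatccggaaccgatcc
Mrps27: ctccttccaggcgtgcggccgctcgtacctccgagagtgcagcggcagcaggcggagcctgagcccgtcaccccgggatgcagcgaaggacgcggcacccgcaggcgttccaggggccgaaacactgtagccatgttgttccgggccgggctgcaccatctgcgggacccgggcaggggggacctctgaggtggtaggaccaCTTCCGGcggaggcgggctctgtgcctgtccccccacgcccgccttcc
Mrpl45: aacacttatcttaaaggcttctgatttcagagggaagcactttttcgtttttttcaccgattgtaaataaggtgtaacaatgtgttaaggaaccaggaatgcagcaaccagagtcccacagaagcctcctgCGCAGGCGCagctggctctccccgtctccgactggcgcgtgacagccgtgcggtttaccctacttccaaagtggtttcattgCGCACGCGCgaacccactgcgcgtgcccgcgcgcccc
Mrps6: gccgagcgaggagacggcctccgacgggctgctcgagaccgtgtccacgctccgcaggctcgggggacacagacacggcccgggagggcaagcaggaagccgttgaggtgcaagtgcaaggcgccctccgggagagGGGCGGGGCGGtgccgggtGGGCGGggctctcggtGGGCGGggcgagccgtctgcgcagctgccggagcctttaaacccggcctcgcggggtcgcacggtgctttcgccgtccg
Mrpl24: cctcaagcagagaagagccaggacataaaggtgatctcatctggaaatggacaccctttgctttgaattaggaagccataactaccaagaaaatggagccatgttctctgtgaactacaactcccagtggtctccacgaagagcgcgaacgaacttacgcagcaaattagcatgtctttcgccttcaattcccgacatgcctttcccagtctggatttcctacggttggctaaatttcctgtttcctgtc
The windows of Mrps15 and Mrps6 held SP letters alone, with 2 and 4 matches, of which a pair overlapped in Mrps6. The Mrps27 window held 1 ETS match and the Mrpl45 window 2 NRF1 matches. None of these letters stood in the Mrpl24 window.

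Promoter windows were matched for 69 of the 78 genes. NRF1 letters were in 21.7% of these 69 genes, against 13.4% of the 8790 tested genes with a window and 5.88% of all 27025 genes with one. ETS letters were in 26.1% of the members, 17.1% of the tested genes and 7.83% of all genes. SP letters, in 47.8% of the members, were less frequent than in the tested genes (63.1%) and more frequent than in all genes (35.4%). E-box letters were in 7.25% of the members, 10.1% of the tested genes and 6.86% of all genes, and YY1 letters in 2.90%, 2.74% and 1.29%. The median log2 fold change with activation was 0.69 for members with NRF1 letters and 0.73 for those without in Mb1Cre cells, and 0.63 and 0.69 in Mct1f/fMb1Cre cells. For ETS letters it was 0.71 and 0.72 in Mb1Cre cells and 0.57 and 0.71 in Mct1f/fMb1Cre cells, and for SP letters 0.72 and 0.68, and 0.73 and 0.62. For E-box letters, held by 5 members, it was 0.87 and 0.72 in Mb1Cre cells and 0.64 and 0.67 in Mct1f/fMb1Cre cells. For YY1 letters, held by 2 members, it was 0.58 and 0.72, and 0.73 and 0.66. None of these differences was tested. A match describes the letters of the window and not the binding of a factor.

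The values were FPKM, fragments scaled to transcript length and to the mapped total, so levels can be compared between genes on a per-length scale. Their sum over all genes was 477079 to 491459 in the day 0 libraries and 547355 to 563586 in the day 3 libraries, and the sequencing depth is unknown. Slc16a1 had 22.6 and 23.0 FPKM in the Mb1Cre libraries of day 3 and 9.50, 9.81 and 10.8 FPKM in the Mct1f/fMb1Cre libraries. On day 0 it had 3.80 and 4.33 FPKM against 3.71 and 4.06 FPKM. The summed level of 5 B cell markers was 3824 to 4240 FPKM on day 0 and 1852 to 1988 FPKM on day 3. That of 7 myeloid markers was 1077 to 1850 FPKM on day 0 and 22.7 to 35.8 FPKM on day 3, that of 5 T cell markers 26.7 to 30.1 and 0.77 to 1.37 FPKM, that of 5 erythroid markers 96.0 to 173 and 4.34 to 7.95 FPKM, that of 4 NK cell markers 67.0 to 82.8 and 85.3 to 98.4 FPKM, mostly Gzma on day 3, and that of 3 platelet markers 3.98 to 10.3 and 2.36 to 3.94 FPKM. Hbb-bs was listed at 0 in all day 3 libraries. The Y-linked gene Ddx3y had 31.1 FPKM in replicate 1 of the naïve Mct1f/fMb1Cre cells, 0.02 to 0.24 FPKM in the other day 0 libraries and 14.7 to 16.9 FPKM in the day 3 libraries. The Y-linked genes Eif2s3y, Kdm5d and Uty, were likewise highest on day 0 in that 1 library. The day and the presence of Y-linked RNA therefore cannot be told apart in the Mb1Cre libraries, and the part of other cells in the day comparisons was not tested. In bulk RNA, fewer cells of a type and less RNA per cell cannot be told apart.

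The first comparison asked how the genes changed from naïve to activated Mb1Cre cells. Of the 78 genes, 57 rose, 1 fell and 20 were not called. A gene was called when its adjusted p (limma, Benjamini-Hochberg over all genes tested) was under 0.05 and its log2 fold change, on the scale of log2(FPKM + 1), was above 0.5 in size. All 78 genes passed the filter of a mean of at least 1 FPKM, as did 10823 genes in all. Among those 10823 genes 24.8% were called higher and 33.0% lower, so that 73.1% of the members rose against 24.8% of all genes and 1.28% fell against 33.0%. The median log2 fold change was 0.72 for the members and -0.12 for all genes tested. Both day 3 libraries lay above both day 0 libraries for 73 of the 78 genes, as they did for 40.4% of all genes tested.

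Mct1f/fMb1Cre cells were compared in the same way. Of the 78 genes, 50 rose, 1 fell and 27 were not called. This was 64.1% of the members called higher, where 23.4% of all genes tested were called higher and 33.2% lower. The median was 0.69 for the members and -0.14 for all genes. The 3 activated libraries lay above both naïve ones for 72 genes, as for 38.3% of all genes tested. Without replicate 2 of day 0, which leaves only the naïve library with Y-linked RNA, 55 members were called higher and 1 lower. Without replicate 1, the naïve library with the highest myeloid marker sum, 49 were called higher and 1 lower.

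**Figure D1:**
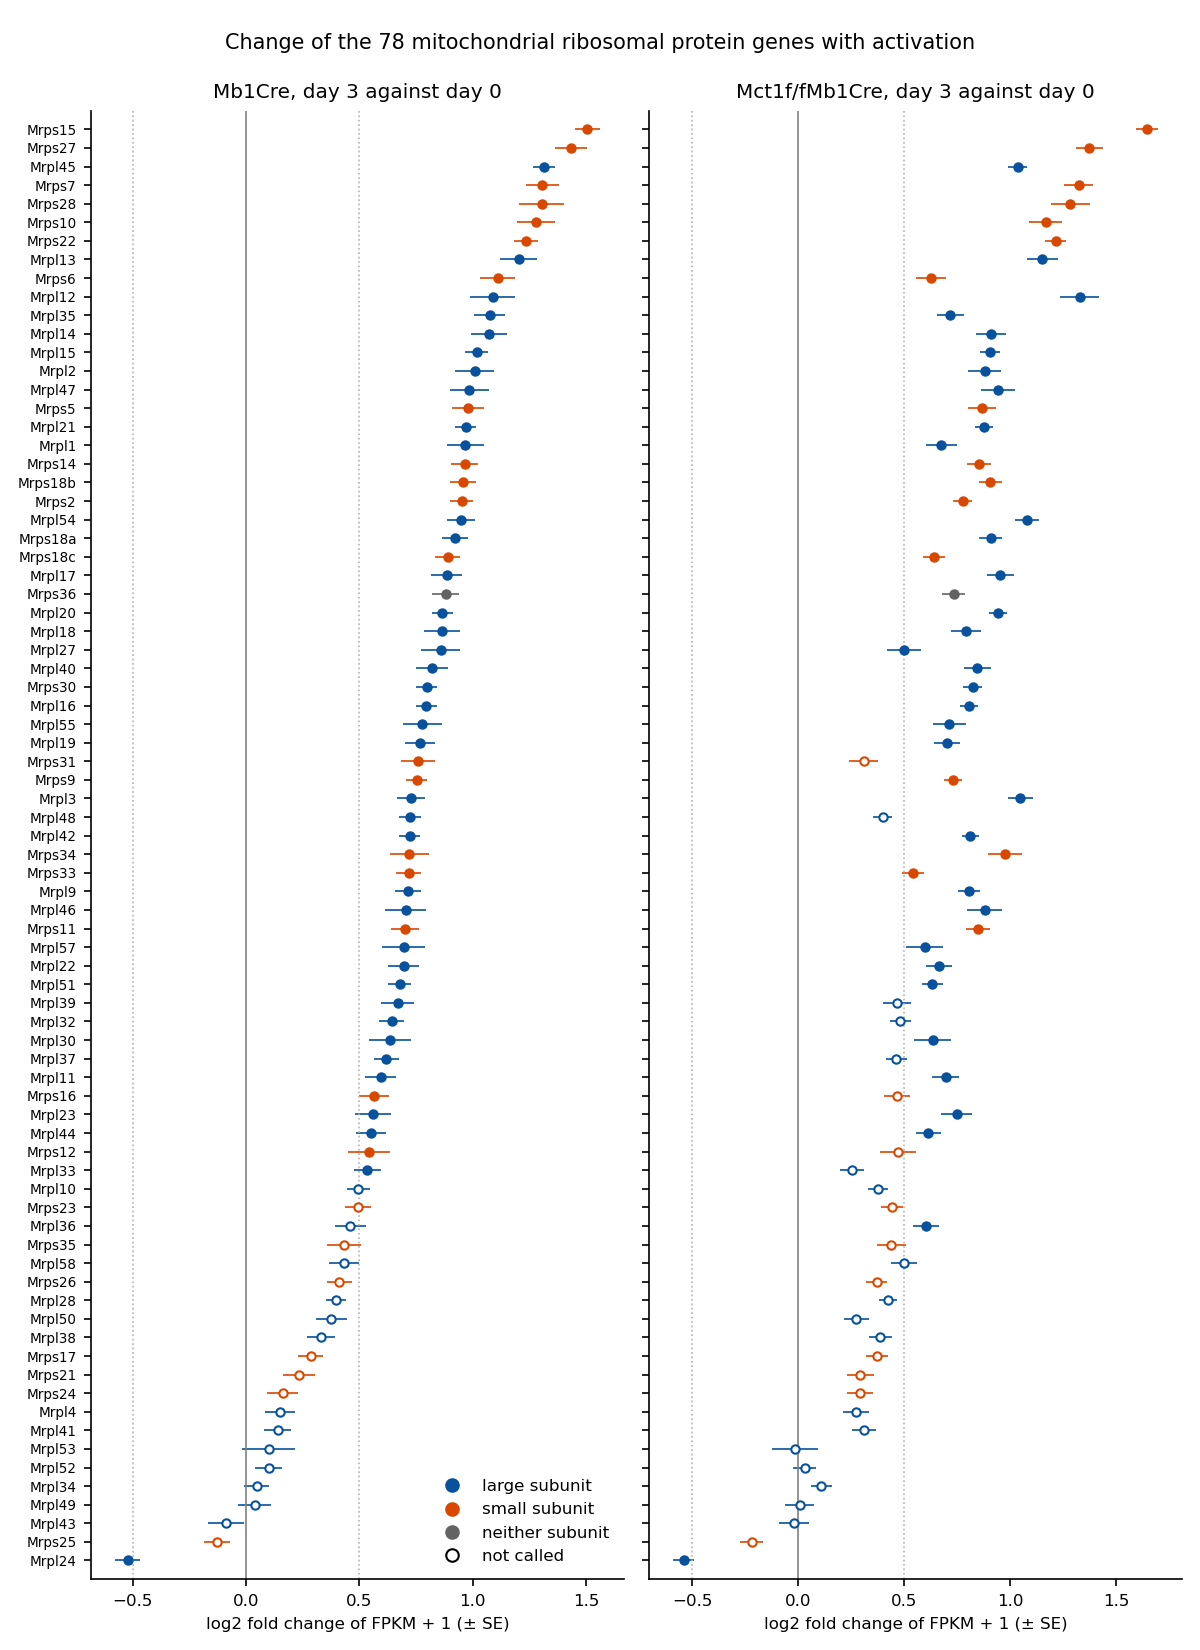
Log2 fold change of FPKM + 1 from day 0 to day 3 (horizontal axis, with its SE) of each of the 78 genes (vertical axis, ordered by Mb1Cre) in Mb1Cre cells on the left and Mct1f/fMb1Cre cells on the right. Filled points were called, open points were not, dotted lines mark 0.5 in each direction, and the single filled point below 0 on either side is Mrpl24.

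The genotypes share no library, so their changes can be set beside each other. In both, 49 of the 78 genes rose and 1 fell, and 19 were called in neither. The shares of all genes tested with the same call in both genotypes were not computed, so nothing is concluded from this overlap. Mrpl32, Mrpl33, Mrpl37, Mrpl39, Mrpl48, Mrps12, Mrps16 and Mrps31 rose by the call in Mb1Cre cells and missed it in Mct1f/fMb1Cre cells, and Mrpl36 did the reverse. Whether the size of the change differed between the genotypes is tested below by the interaction. Over these 78 points, which share cell type and treatment and are not independent, Pearson's r between both sets of changes was 0.92 (Spearman's rho 0.87).

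In the small subunit, 19 of 26 genes rose in Mb1Cre cells and 16 in Mct1f/fMb1Cre cells, with medians of 0.76 and 0.69 on the log2 scale. None was called lower. Mrps15, a homologue of bacterial S15, had 41.4 and 44.7 FPKM in naïve and 125 and 123 FPKM in activated Mb1Cre cells, and 40.7 and 43.3 against 139, 135 and 127 FPKM in Mct1f/fMb1Cre cells. Every activated library lay far above the naïve ones. The log2 fold change was 1.51 ± 0.06 (SE, adjusted p = 5.09e-10, limma) and 1.65 ± 0.05 (adjusted p = 1.16e-10), or 2.88-fold and 3.18-fold in FPKM. It was the highest of the 78 genes in each day 3 library.

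Mrps27, a mitochondrion-specific protein, had 11.8 and 10.4 FPKM in naïve and 32.7 and 30.6 FPKM in activated Mb1Cre cells. In Mct1f/fMb1Cre cells it had 11.6 and 11.4 FPKM against 29.4, 32.3 and 32.6 FPKM. The groups did not overlap, and the log2 fold changes were 1.43 ± 0.07 and 1.37 ± 0.06 (SE, adjusted p = 5.65e-09 and 3.49e-09, limma). The next in order in Mb1Cre cells were Mrps7, Mrps28, a homologue of a part of bacterial S1, Mrps10, the mitochondrion-specific Mrps22 and Mrps6. Their log2 fold changes in Mb1Cre and Mct1f/fMb1Cre cells were 1.31 and 1.32 for Mrps7, 1.31 and 1.28 for Mrps28, 1.28 and 1.17 for Mrps10 and 1.23 and 1.21 for Mrps22. Mrps6 had 1.11 and 0.63, which placed it 9th of the 78 genes in Mb1Cre and 45th in Mct1f/fMb1Cre cells.

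Among small subunit proteins with a known place, Mrps2, which binds early in assembly, rose by 0.95 and 0.78 on the log2 scale, and Mrps5, near the decoding region, by 0.98 and 0.87. Mrps12, a protein of the decoding centre itself, rose by 0.54 in Mb1Cre cells and had 0.47 in Mct1f/fMb1Cre cells, short of the call, which in Mb1Cre cells was also lost without replicate 2 of day 0 (0.45) or replicate 2 of day 3 (0.49). The 3 Mrps18 genes are related to bacterial S18, but their proteins sit in different places. Mrps18c occupies the site of bacterial S18 and was the only one counted as its homologue, Mrps18b lies elsewhere in the small subunit and Mrps18a is in the large subunit. In this order they rose by 0.89, 0.96 and 0.92 in Mb1Cre cells and by 0.64, 0.91 and 0.91 in Mct1f/fMb1Cre cells.

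Mrps25, a mitochondrion-specific protein, was the small subunit gene with a negative value. It had 8.62 and 8.64 FPKM in naïve and 7.79 and 7.82 FPKM in activated Mb1Cre cells, and 8.24 and 8.57 against 6.83, 7.27 and 7.15 FPKM in Mct1f/fMb1Cre cells. The activated libraries were the lower ones without overlap, and in each of them Mrps25 was the lowest of the 78 genes. The log2 fold changes of -0.13 ± 0.06 and -0.22 ± 0.05 (SE, adjusted p = 0.0601 and 0.00269, limma) were below the size limit and turned to 0.06 and 0.02 under quantile normalization. Mrps25 overlaps Nr2c2 on the other strand, which had a log2 fold change of -0.96 in Mb1Cre cells, and whether the counting used strand is not given in the sources used here.

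In the large subunit, 37 of 51 genes rose in Mb1Cre cells and 33 in Mct1f/fMb1Cre cells, with medians of 0.70 and 0.68, and 1 fell in each. Mrpl45, which ties the ribosome to the inner membrane at the exit of the nascent peptide, had 16.7 and 17.04 FPKM in naïve and 44.0 and 42.8 FPKM in activated Mb1Cre cells. In Mct1f/fMb1Cre cells it had 17.7 and 16.4 FPKM against 35.4, 36.2 and 36.4 FPKM. All activated libraries were above all naïve ones, and the activated Mct1f/fMb1Cre libraries lay between them and the activated Mb1Cre libraries. The log2 fold changes were 1.32 ± 0.05 and 1.04 ± 0.05 (SE, adjusted p = 6.75e-10 and 2.06e-09, limma).

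Proteins of the stalk, where translation factors dock, moved to different extents. Mrpl12, which recruits the factors and has also been reported to bind the mitochondrial RNA polymerase, had 41.6 and 44.4 FPKM in naïve and 96.8 and 88.5 FPKM in activated Mb1Cre cells. In Mct1f/fMb1Cre cells it had 35.5 and 44.0 FPKM against 90.9, 104 and 108 FPKM. It rose without overlap, by 1.09 ± 0.10 and 1.33 ± 0.09 on the log2 scale (SE, adjusted p = 1.23e-06 and 9.27e-08, limma). Mrpl11, at the stalk base, rose by 0.59 and 0.70, and Mrpl10, the anchor of Mrpl12, had 0.50 and 0.38, which missed the size limit in both genotypes.

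Around the peptide exit and the catalytic centre, Mrpl47 rose by 0.99 and 0.94 and the ribonuclease III-like Mrpl44 by 0.55 and 0.61. Mrpl44 missed the limit in Mb1Cre cells without replicate 1 of day 3 (0.49). Mrpl3, a core protein near the peptidyl transferase centre, rose by 0.73 and 1.05. Mrpl58, a peptidyl-tRNA hydrolase built into the ribosome that can release stalled peptides, had 0.43 and 0.50 and was not called in either. Mrpl13 rose by 1.20 and 1.15, Mrpl54 by 0.95 and 1.08 and Mrps30 by 0.80 and 0.82. Outside the ribosome, Mrps36 rose by 0.88 and 0.73.

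Mrpl24, a homologue of bacterial L24, fell. It had 81.9 and 82.5 FPKM in naïve and 58.0 and 55.8 FPKM in activated Mb1Cre cells, and 82.8 and 80.0 against 57.1, 57.9 and 52.3 FPKM in Mct1f/fMb1Cre cells. Every activated library was below every naïve one. The log2 fold changes were -0.52 ± 0.05 and -0.54 ± 0.05 (SE, adjusted p = 2.88e-06 and 9.60e-07, limma). The value stayed below 0 with an adjusted p of at most 7.37e-05 in 20 alternatives of the fit, but it lies close to the size limit and missed it without replicate 2 of the activated Mb1Cre cells (-0.50), without replicate 3 of the activated Mct1f/fMb1Cre cells (-0.49), with median-of-ratios scaling (-0.40 in both), with a pseudocount of 5 in Mb1Cre cells (-0.49) and with the replicate number as a block in Mct1f/fMb1Cre cells (-0.49). It was called in 17 of the 20 alternatives in Mb1Cre and in 16 in Mct1f/fMb1Cre cells. On the other strand Mrpl24 overlaps Rrnad1, which fell by 1.29 and 1.32 on the log2 scale, from 21.5 ± 0.30 to 8.22 ± 0.40 FPKM (SD, n = 2 and 2) in Mb1Cre cells. Reads from the shared stretch cannot be told apart without strand, and the length of that stretch was not computed.

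A further group of large subunit genes had values near 0. Mrpl52 was the highest of the 78 genes in each naïve library and had similar levels on both days, with 95.8 and 95.2 against 109 and 95.9 FPKM in Mb1Cre cells and 92.5 and 98.8 against 98.3, 97.0 and 97.9 FPKM in Mct1f/fMb1Cre cells. Its log2 fold changes of 0.10 and 0.03 (adjusted p = 0.136 and 0.597, limma) turned negative when the libraries were scaled to a common total or quantile normalized. Mrpl34, Mrpl43, Mrpl49 and Mrpl53 lay between -0.09 and 0.11 in both genotypes, and their adjusted p (limma) between 0.0612 and 0.922. These 4 genes were named after their values were seen. Each had overlapping groups in at least 1 genotype.

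**Figure D2:**
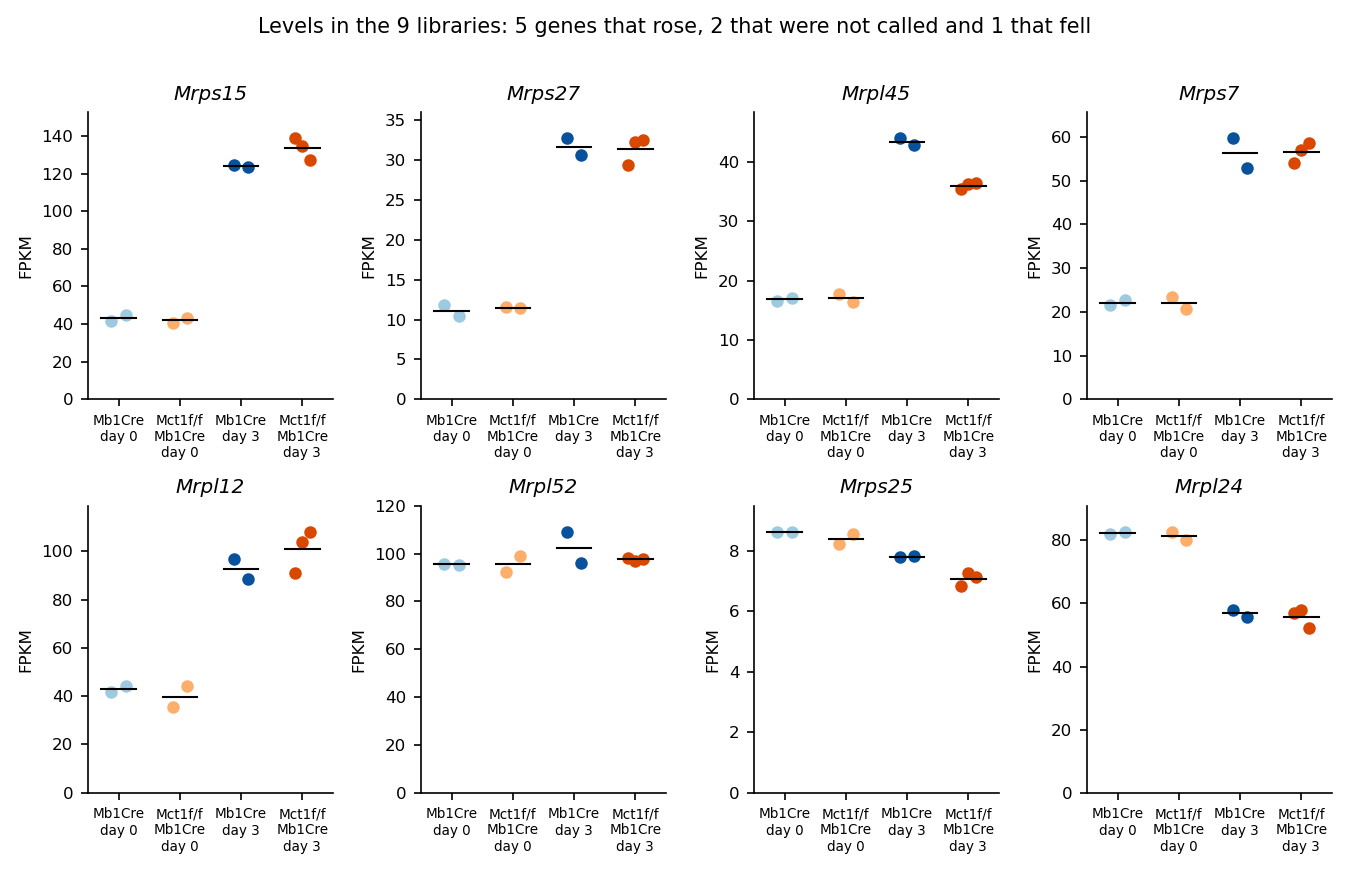
FPKM (vertical axes, from 0) of 8 genes in each of the 9 libraries (points) of the 4 groups, with the group mean as a line. Mrps15, Mrps27, Mrpl45, Mrps7 and Mrpl12 had every day 3 library above every day 0 library, Mrpl24 had the reverse, and Mrpl52 had overlapping libraries in Mct1f/fMb1Cre cells.

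The genes were also counted by origin, and whether the classes differ was not tested. Of all genes tested, 24.8% were called higher in Mb1Cre cells and 23.4% in Mct1f/fMb1Cre cells. Of 45 genes with a bacterial homologue, 36 rose in Mb1Cre cells (80.0%, median 0.80) and 33 in Mct1f/fMb1Cre cells (73.3%, median 0.73). Of 32 mitochondrion-specific genes, 20 rose in Mb1Cre cells (62.5%, median 0.69) and 16 in Mct1f/fMb1Cre cells (50.0%, median 0.52). The single fall, of Mrpl24, was among the bacterial homologues.

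As a group, the 78 genes held 0.419% to 0.436% of the summed FPKM in the day 0 libraries and 0.585% to 0.601% in the day 3 libraries. Their median level was 22.8 to 23.5 FPKM on day 0 and 37.5 to 40.9 FPKM on day 3. The genes also became more alike in level, since the coefficient of variation across the 78 was 63.9% to 66.4% on day 0 and 55.6% to 60.6% on day 3. The mean level of large subunit genes was 1.12 to 1.15 times that of small subunit genes on day 0 and 0.992 to 1.01 times on day 3. The day 0 and day 3 libraries did not overlap in any of these measures. On a per-length scale the highest genes of activated Mb1Cre cells were Mrps15, Mrpl52, Mrpl54, Mrpl23 and Mrpl12, with means of 92.6 to 124 FPKM. The lowest were Mrps25, Mrpl17, Mrpl19, Mrpl35 and Mrpl11, with 7.81 to 13.2 FPKM. Mrpl17 was the lowest gene in each naïve library, with 3.93 to 4.45 FPKM, and rose by 0.89 and 0.95 on the log2 scale. The order of the genes was largely kept, with a Pearson's r between the mean log2 levels of day 0 and day 3 of 0.90 in either genotype, across the same 78 genes.

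**Figure D3:**
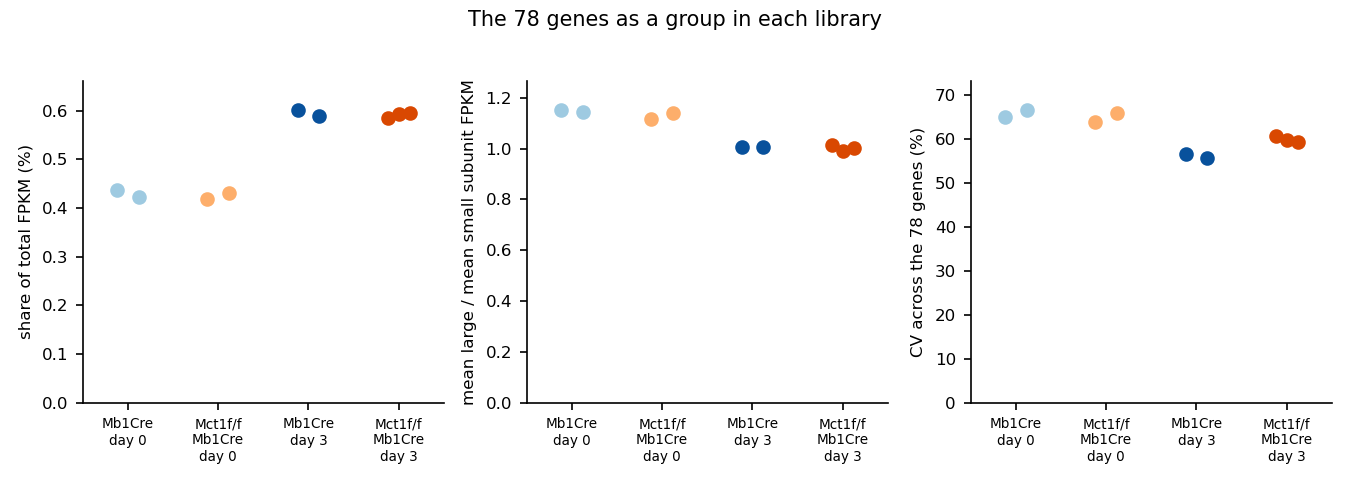
The 78 genes in each of the 9 libraries (points) of the 4 groups: their share of the summed FPKM of all genes in percent, the mean FPKM of the 51 large subunit genes over that of the 26 small subunit genes, and the coefficient of variation of FPKM across the 78 genes in percent. All axes start at 0, and the day 3 libraries lie above the day 0 libraries in the first panel and below them in the other two.

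The table was also read for the genes that work with the mitochondrial ribosome. Of 5 ribosomal proteins with other symbols, Chchd1, Gadd45gip1 and Ptcd3 rose in both genotypes, by 1.01, 0.94 and 0.55 in Mb1Cre cells, and Dap3 and Aurkaip1 had 0.41 and 0.29 without a call. Called higher were thus 60.0% in either genotype, against 24.8% and 23.4% of all genes tested. A list of translation factors, which also holds Slirp, had 16 genes tested. Of these, 6 rose and 1 fell in Mb1Cre cells, and 6 rose and 0 fell in Mct1f/fMb1Cre cells. The share called higher was 37.5% in either, against 24.8% and 23.4% of all genes tested. The elongation factor Gfm1 rose by 0.97 and 1.06. Slirp, which partners the RNA-binding protein Lrpprc, rose by 1.31 in Mb1Cre cells, and the elongation factor Tufm rose by 1.03 in Mct1f/fMb1Cre cells. The initiation factor Mtif3 fell by 0.55 in Mb1Cre cells. Naming a gene for 1 genotype does not mean that the genotypes differed. None of the 16 genes was called in the interaction of genotype and day, where the values were -0.32 to 0.09.

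Genes of ribosome assembly and of ribosomal RNA modification moved in both directions. Of 27 tested, 8 rose and 2 fell in Mb1Cre cells and 6 rose and 2 fell in Mct1f/fMb1Cre cells. The shares called higher, 29.6% and 22.2%, are near the 24.8% and 23.4% of all genes tested. Tfb1m, the methyltransferase of the small ribosomal RNA, rose by 1.17 and 0.95, and Ndufab1, the mitochondrial acyl carrier protein, by 1.32 and 1.39. Mettl17 fell from 22.4 and 22.2 to 8.89 and 9.73 FPKM in Mb1Cre cells, by 1.18 on the log2 scale, and Mterf3 fell by 0.75. Both also fell in Mct1f/fMb1Cre cells, by 1.00 and 0.86.

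Other lists were smaller. Of 17 genes of mitochondrial transcription and RNA processing, 5 rose and 3 fell in Mb1Cre cells, with Top1mt (0.98) and Supv3l1 (0.82) highest and Polg (-0.71) and Mterf1a (-0.61) lowest. In Mct1f/fMb1Cre cells 4 rose and 3 fell. Again the shares called higher, 29.4% and 23.5%, are near those of all genes. Of 20 mitochondrial aminoacyl-tRNA synthetases and related enzymes, 6 rose and 2 fell in Mb1Cre cells and 3 rose and 0 fell in Mct1f/fMb1Cre cells, with Rars2 at 1.08 and 0.78. Their shares called higher were 30.0% and 15.0%, against 24.8% and 23.4% of all genes tested. Of 8 nuclear regulators tested, Myc rose by 0.65 and 0.90, Pprc1 rose in Mct1f/fMb1Cre cells (0.53), and Esrra fell by 1.18 and 1.22. Called higher were 12.5% and 25.0% of them, against 24.8% and 23.4% of all genes tested, and none was called in the interaction. Nrf1, Gabpa and Yy1, whose motifs were searched above, had -0.20, 0.13 and 0.06 in Mb1Cre cells and were not called. The 13 proteins encoded by mitochondrial DNA were not found among the deposited values under the symbols searched, so they were not analysed here.

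Cytosolic ribosomal proteins and nuclear OXPHOS subunits changed to a similar extent as the members, with no test made of a difference. Of 77 cytosolic ribosomal protein genes tested, 52 rose and 0 fell in Mb1Cre cells (median 0.63) and 45 rose and 1 fell in Mct1f/fMb1Cre cells (0.54). Of 78 OXPHOS genes, 55 rose and 0 fell in Mb1Cre cells (0.70) and 53 rose and 1 fell in Mct1f/fMb1Cre cells (0.63). The summed FPKM of the cytosolic genes was 43.1 to 47.5 times, and that of the OXPHOS genes 3.09 to 3.21 times, that of the 78 members in the 9 libraries.

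The second comparison asked whether the genes differed between the genotypes in activated cells. RNA of Slc16a1, counted over the whole gene, remained in Mct1f/fMb1Cre cells at 44.1% of the Mb1Cre mean on day 3 and 95.6% on day 0. None of the 78 genes was called on day 3, where 2.42% of all genes tested were. At an adjusted p under 0.05 and whatever the size (limma), 6 members were lower and 0 were higher in Mct1f/fMb1Cre cells, where 9.21% of all genes were lower and 6.03% higher. The members' share of 7.69% lower is near that background. At an unadjusted p under 0.05, 12 members were lower and 1 was higher. The shares of all genes at that limit were not computed, so nothing is concluded from this split. Without overlap of the groups, 19 members were lower and 5 higher in Mct1f/fMb1Cre cells, again with no share of all genes computed. The median was -0.02 for the members and -0.01 for all genes. The summed myeloid markers were 22.7 and 25.5 FPKM in the Mb1Cre libraries and 31.4 to 35.8 FPKM in the Mct1f/fMb1Cre libraries, and their part in the differences was not tested.

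Mrps6 had 24.3 and 24.4 FPKM in activated Mb1Cre cells and 16.7, 18.9 and 18.3 FPKM in activated Mct1f/fMb1Cre cells, without overlap. The log2 fold change was -0.42 ± 0.07 (SE, adjusted p = 0.00261, limma), or 0.737-fold in FPKM. Mrps6 overlaps Slc5a3 on the same strand, whose level was 0.38 to 0.87 FPKM in the 9 libraries. Mrpl45, with the values given above, had -0.26 ± 0.05 (SE, adjusted p = 0.0034, limma). These were the 2 genes whose adjusted p was under 0.05 in all 20 alternatives of the fit, with at most 0.0292 for Mrps6 and 0.0476 for Mrpl45.

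Mrpl27, a homologue of bacterial L27, had 46.1 and 47.6 FPKM in Mb1Cre cells against 38.4, 33.8 and 34.6 FPKM in Mct1f/fMb1Cre cells. The groups did not overlap, with a log2 fold change of -0.39 ± 0.08 (SE, adjusted p = 0.00858, limma), but the adjusted p rose to 0.0543 and 0.0719 without replicate 1 or 2 of the activated Mb1Cre cells. Mrpl48 had 36.0 and 33.9 against 29.9, 30.7 and 31.2 FPKM, and Mrpl32 50.0 and 47.7 against 43.1, 44.2 and 41.7 FPKM. Their log2 fold changes were -0.19 and -0.18 (adjusted p = 0.0186 and 0.033, limma), and Mrps33, the remaining gene of the 6, had -0.18 (adjusted p = 0.042). Mrps33 was named after its values were seen, with 44.9 and 40.4 against 37.6, 37.0 and 37.8 FPKM. Mrpl48 lost the adjusted p without replicate 1 of the activated Mb1Cre cells (0.181) or of the activated Mct1f/fMb1Cre cells (0.0536). Mrpl32 lost it without either Mb1Cre library (0.231 and 0.0792) and without replicate 1 or 3 of the Mct1f/fMb1Cre libraries (0.066 and 0.109). Mrps33 lost it without replicate 1 of the Mb1Cre libraries (0.347) and without any of the Mct1f/fMb1Cre libraries (0.0790, 0.106 and 0.0923). In the other direction the largest value was that of Mrpl3, with 45.5 and 44.7 against 52.0, 48.5 and 52.0 FPKM and a log2 fold change of 0.17 ± 0.06 (SE, adjusted p = 0.0761, limma).

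**Figure D4:**
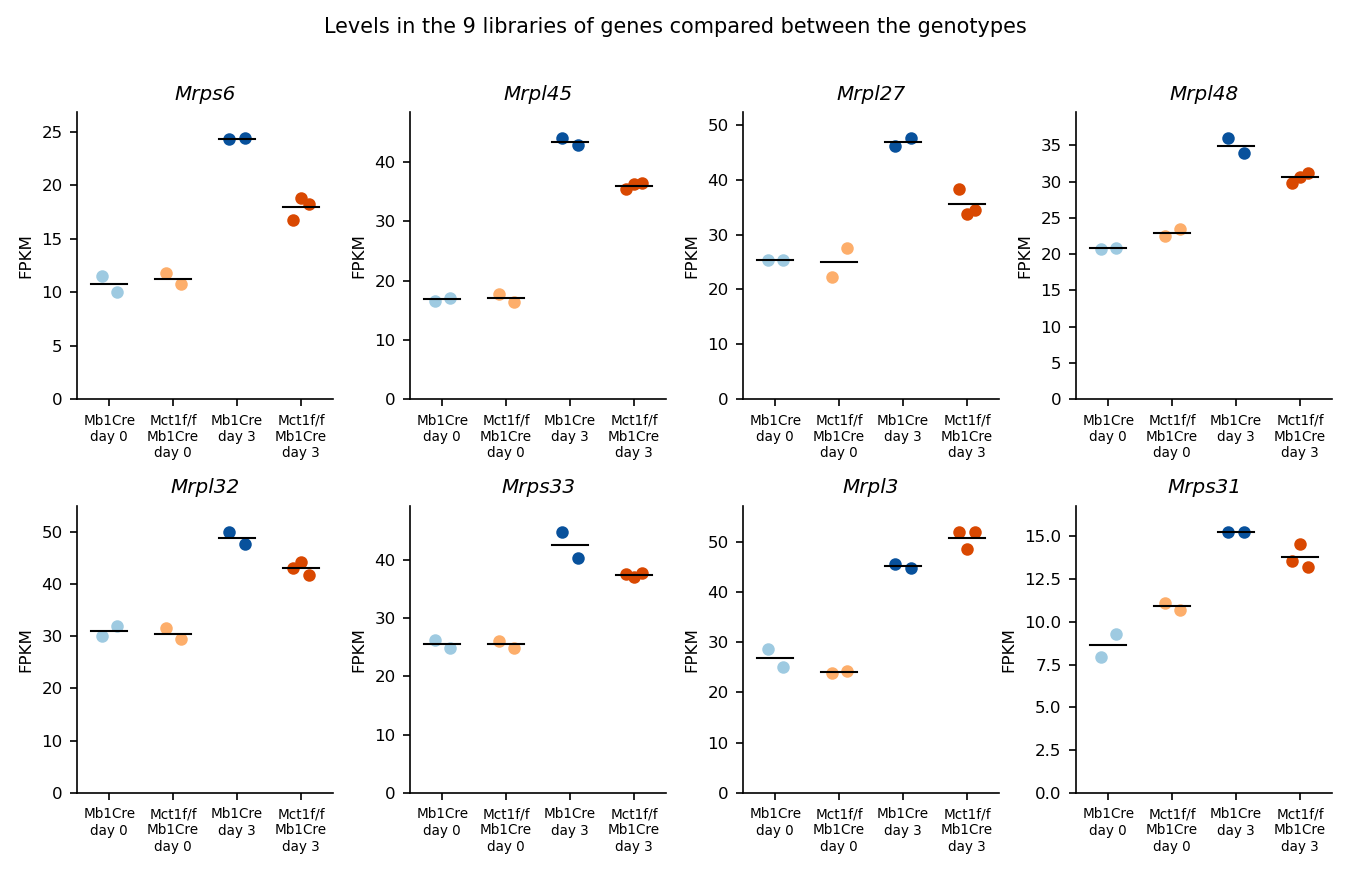
FPKM (vertical axes, from 0) of 8 genes in each of the 9 libraries (points) of the 4 groups, with the group mean as a line. Mrps6, Mrpl45, Mrpl27, Mrpl48, Mrpl32, Mrps33 and Mrps31 were lower in every activated Mct1f/fMb1Cre library than in both activated Mb1Cre libraries, and Mrpl3 was higher.

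In naïve cells none of the 78 genes was called between the genotypes, where 0.277% of all genes tested were. At an adjusted p under 0.05 of any size 0 members were lower and 0 higher (limma), where 0.0647% and 0.351% of all genes were. At an unadjusted p under 0.05 the counts were 6 lower and 5 higher, with no share of all genes computed at that limit. The largest values were those of Mrps31, at 7.96 and 9.31 FPKM in Mb1Cre and 11.1 and 10.7 FPKM in Mct1f/fMb1Cre cells, and of Mrpl41, at 12.3 and 12.1 against 10.1 and 11.1 FPKM. Neither gene had overlapping groups, but the log2 fold changes of 0.31 ± 0.07 and -0.18 ± 0.06 had adjusted p of 0.162 and 0.294 (SE, limma). In all, 15 members were higher and 16 lower in naïve Mct1f/fMb1Cre cells without overlap, and the share of all genes was not computed.

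The interaction compared the genotype difference of day 3 with that of day 0, which is also the difference in activation between the genotypes. None of the members was called, where 3.23% of all genes were. At an adjusted p under 0.05 of any size, 5 members had a more negative genotype difference on day 3 (5.61% of all genes) and 1 a more positive one (3.82%). The 5 were Mrps6 (-0.48 ± 0.10), Mrps31 (-0.45 ± 0.10), Mrpl35 (-0.36 ± 0.09), Mrpl48 (-0.32 ± 0.07) and Mrpl45 (-0.28 ± 0.07, all log2 ± SE), and the 1 was Mrpl3 (0.32 ± 0.09). Of the 6 genes that were lower on day 3, 3 are among them: Mrps6, Mrpl45 and Mrpl48. For Mrpl35 the activated libraries had 12.3 and 11.6 FPKM in Mb1Cre and 10.4, 9.99 and 10.5 FPKM in Mct1f/fMb1Cre cells, and the naïve ones 5.36 and 4.89 against 5.59 and 6.13 FPKM. By mean level the genotypes thus stood in the opposite order on the days. The same was so for Mrps31, Mrpl48 and, the other way round, Mrpl3. No member had an adjusted p under 0.05 between the genotypes on day 0 (limma), so a turn of sign was not established.

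The genes lay on 17 chromosomes in the GENCODE annotation of GRCm38, with 11 on chromosome 11, 8 on chromosome 17 and 0 on X or Y. Mrps15 was at chr4:126046925-126055532, Mrps27 at chr13:99344786-99415562, Mrpl45 at chr11:97315716-97329920, Mrps6 at chr16:92058270-92112227 and Mrpl24 at chr3:87919506-87923672, all on the plus strand. For 18 genes (23.1%) another coding gene started within 1000 bases upstream on the opposite strand, without overlap, as for 6.77% of 22028 coding genes. The 22028 include genes below the filter, and the share of tested genes with such head-to-head partners was not computed. Of 17 such partners tested, 4 rose, 5 fell and 8 were not called in Mb1Cre cells, and 6 rose and 3 fell in Mct1f/fMb1Cre cells, with 24.8% and 33.0%, and 23.4% and 33.2%, of all genes tested called higher and lower. In Mb1Cre cells their median log2 fold change was 0.22 where their members had 0.70. In the same cells the largest rise among them was that of Ncapd2, a condensin subunit 100 bases from Mrpl51 (2.03), and the largest fall that of Pnpla7, a lysophospholipase 935 bases from Mrpl41 (-1.65). In all, 23 members overlap a coding gene on the other strand and 4 on the same strand, and 3 have named processed pseudogenes, whose reads could be split from theirs. These 3 are Mrpl23, Mrpl48 and Mrps36.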

How the data were processed

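RNA sequencing libraries of splenic B cells were grouped by genotype and day from their labels. The authors deposited FPKM values, rounded to 2 decimals, for 17596 genes. Per the labels and the study's methods, the sequencing institute assembled and analysed the data. The submitters' processing notes name Bowtie2, GRCm38 and mm10. The annotation, strand setting and version were not given in the sources used here. FPKM hold no counts, and their low values showed no common step, so depth and counting error are unknown, and precision rests on 2 or 3 libraries per group.

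Without further scaling, log2(FPKM + 1) was fitted for the 10823 genes that reached 1 FPKM on average with limma 3.58.1 in R 4.3.3 (1 mean for each of 4 groups, 5 residual degrees of freedom, empirical Bayes with trend, Benjamini-Hochberg adjustment). A call needed an adjusted p below 0.05 together with a log2 change of more than 0.5 either way. The pseudocount understates the change of low genes. The procedure was also run on simulated data with changes planted in the genotype comparison of day 3 alone, and no result here rests on that run. The study's methods name limma with an adjusted p under 0.05 and a log2 limit of 1 in the section that holds these libraries, after public patient data, and do not say which data were meant, so a limit of 1 was an alternative here. Counts and medians of members stand beside those of all genes, with no set test.

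Named were members with fixed roles, the 10 largest called changes in each direction whose groups did not overlap, the 5 lowest p in each direction between genotypes and in the interaction among those with an adjusted p under 0.05 (or else the largest change), the 5 highest and 5 lowest levels, and the 2 largest changes in each direction of the other lists. The members and lists were chosen with earlier results of these data known. Alternatives were pseudocounts of 0.1 and 5, no filter or a mean of 5 FPKM, 3 scalings, only the groups compared, a block for replicate numbers, an untrended prior, leaving out single libraries in turn, and a log2 limit raised to 1 or dropped. A crossed block was added after the data were seen. Positions came from GENCODE and promoters from RefSeq (GRCm38.p6). Figures used matplotlib 3.10.9 in Python 3.11.15.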

Additional observations from a re-analysis of the deposited data

Results flagged for a closer look

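The genotype difference of 6 genes was not the same on day 3 as on day 0 by the interaction in limma, at an adjusted p under 0.05 and with changes below the size limit. A more negative difference was found in 6.41% of the members and 5.61% of all genes tested. A more positive one was found in 1.28% and 3.82%. The members' shares were thus near or below those of all genes. In log2 terms, the difference on day 3 minus that on day 0 was -0.48 for Mrps6 (adjusted p = 0.0177), -0.45 for Mrps31 (0.0201), -0.36 for Mrpl35 (0.0387), -0.32 for Mrpl48 (0.0151), -0.28 for Mrpl45 (0.0293) and 0.32 for Mrpl3 (0.0426). Mrps6 went from 0.06 on day 0 to -0.42 on day 3 and Mrpl45 from 0.02 to -0.26, so that their differences stood on day 3. Mrps31 went from 0.31 to -0.14, Mrpl35 from 0.16 to -0.19, Mrpl48 from 0.14 to -0.19 and Mrpl3 from -0.15 to 0.17, so that the estimates differed in sign. Between the genotypes, Mrps31, Mrpl35 and Mrpl3 had an adjusted p under 0.05 (limma) on neither day, and Mrpl48 on day 3 alone. A turn of sign was therefore not established.

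Over 19 alternatives of the fit, the adjusted p was under 0.05 in 18 for Mrpl48, 14 for Mrps6, 12 for Mrps31, 8 for Mrpl3, 7 for Mrpl45 and 7 for Mrpl35, and reached at most 0.0725, 0.066, 0.0701, 0.123, 0.112 and 0.14. Mrpl48 missed the threshold without replicate 1 of the activated Mb1Cre cells (0.0725). Mrps6 missed it without replicate 1 of the naïve Mct1f/fMb1Cre cells (0.0591) and without replicate 1 or 2 of the activated Mb1Cre cells (0.0635 and 0.0617). Mrps31 missed it without those 3 libraries (0.0603, 0.0701 and 0.0665) and without replicate 3 of the activated Mct1f/fMb1Cre cells (0.0512). Mrpl3, Mrpl35 and Mrpl45 each missed it without any of 7 of the 9 libraries. The libraries whose loss left them under it were replicate 2 of the naïve Mb1Cre and of the activated Mct1f/fMb1Cre cells for Mrpl3, replicate 1 of both naïve groups for Mrpl35 and replicate 2 of both naïve groups for Mrpl45. The naïve library with Y-linked RNA and the highest myeloid marker sum is among those that matter here, and its part was not tested. No group had 4 libraries, and single libraries were not tested as outliers.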

How the results depend on the processing

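In limma and all 22 alternatives, members called higher with activation outnumbered those called lower. With 2 or 3 libraries per group and unknown depth, small differences were not resolved. The median of all genes tested for activation in Mb1Cre and Mct1f/fMb1Cre cells was -0.12 and -0.14 as deposited, -0.31 and -0.30 at a common total, -0.01 and -0.01 with median-of-ratios scaling and 0.02 and 0.03 with quantile normalization. Relative to it, the members' median was higher by 0.84 and 0.82, 0.83 and 0.82, 0.86 and 0.83, and 0.74 and 0.69, respectively.

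The members' own medians for activation in Mb1Cre and Mct1f/fMb1Cre cells moved from 0.72 and 0.69 to 0.75 and 0.74 with a pseudocount of 0.1, 0.62 and 0.56 with 5, 0.52 and 0.52 at a common total, 0.84 and 0.82 with median-of-ratios scaling and 0.75 and 0.72 with quantile normalization. The counts called higher were 45 and 40 at a common total and 64 and 64 with median-of-ratios scaling, and 14 and 11 with a log2 limit of 1. The count called lower was 0 in both genotypes with a log2 limit of 1 or median-of-ratios scaling and 0 in Mb1Cre cells with a pseudocount of 5. Without a log2 limit 2 were lower in Mct1f/fMb1Cre cells, 6 lower between the genotypes on day 3, and 5 lower and 1 higher in the interaction, where a pseudocount of 0.1 gave 1 lower. For the genotype on day 3, the median of -0.02 became 0.000396 with median-of-ratios scaling and -0.000507 with quantile normalization. The interaction's median of -0.04 became -0.02 at a common total (-0.0178) and with quantile normalization (-0.0199).

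Leaving out each library in turn gave 55 to 59 called higher and 0 to 1 lower in Mb1Cre cells, 49 to 55 and 0 to 1 in Mct1f/fMb1Cre cells, 0 in either direction between the genotypes on either day, and 0 higher and 0 to 1 lower in the interaction. The medians were 0.70 to 0.76, 0.66 to 0.71, -0.0538 to 0.00893 (genotype on day 3), -0.0133 to 0.0211 (day 0) and -0.0754 to 0.00558 (interaction). The values above 0 on day 3 and in the interaction came without replicate 1 of the activated Mb1Cre cells. The call in the interaction was Mrps6 without replicate 1 of the naïve Mb1Cre, replicate 2 of the naïve Mct1f/fMb1Cre or replicate 2 of the activated Mct1f/fMb1Cre cells, Mrps31 without replicate 2 of the naïve Mb1Cre cells and Mrpl27 without replicate 1 of the naïve Mct1f/fMb1Cre cells.

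Mrpl52 turned to -0.10 and -0.15 at a common total, -0.0873 and -0.15 with quantile normalization and, in Mct1f/fMb1Cre cells, -0.0160 without replicate 1 of day 0 (up to 0.0780 without replicate 2). Mrps25 turned to 0.0627 and 0.0230 with quantile normalization. For single named genes, 38 values passed the call under an alternative and 54 lost it, all in the same direction, most of them by a change of the log2 limit or of the scaling. The cause was not tested.

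Libraries of different groups share only a replicate number. The correlation of same-numbered deviations was -0.12 for the days of Mb1Cre, 0.05 and 0.06 for those of Mct1f/fMb1Cre, -0.05 and -0.07 for the genotypes on day 3 and -0.05 on day 0. With the number as a block, 57 members were higher and 1 lower in Mb1Cre cells, and 52 higher and 0 lower in Mct1f/fMb1Cre cells, where Mrpl24 had -0.49. A crossed block for the Mb1Cre libraries, chosen after seeing the data, gave 57 and 1, and 52 and 0.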
